A study of Mus musculus with 4 samples.

Results

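The 95 probes described here were bright mouse microarray probes whose CPEB2 IgG to control IgG ratio pointed in opposite directions in the 2 RNA immunoprecipitation (RIP) experiments. They were selected on their measured values among 33215 probes carrying a gene name, out of 55615 probes used in all. The log2 ratio, CPEB2 IgG minus control IgG, had to be under -0.8 in replicate 1 and over 0.6 in replicate 2, with a processed signal over 3000 on at least 1 of the 4 arrays. Each of the 95 probes named a different gene, and 94 had a genome position, spread over 20 chromosomes. The ratios and signals of these probes are therefore given as a description, and the question that the rule did not settle was what their sequences share.

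Cortex and hippocampus of 8-week-old male C57BL/6 mice, of no stated genotype or drug treatment, were lysed, and each lysate was divided between beads carrying CPEB2 IgG and beads carrying control IgG for 3 h. CPEB2 is an RNA-binding protein that controls translation of its target mRNAs in neurons, and in a RIP the RNA that comes down with the antibody is compared with the RNA that comes down with an unspecific antibody. The 4 RNA samples, 2 per antibody, were amplified from 0.2 ug, labelled with Cy3 and hybridised to 4 arrays of 60-base probes on 1 slide. No sample lacked CPEB2, how many animals made up each lysate was not given in the sources used here, and 1 text field of the CPEB2 IgG samples names CPEB3 where the other fields and the study's methods name CPEB2.

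Runs of alternating G and T are among the commonest simple repeats of the mouse genome, and many introns and untranslated regions hold one. In RNA such a run reads as UG repeats, which are known as the preferred binding sequence of TDP-43, a nuclear RNA-binding protein that controls splicing in neurons. A gene expression probe has the sequence of the mRNA strand and captures its complement in the labelled RNA, so a probe with a GT run captures labelled RNA with an AC run. A sequence of this kind occurs in many transcripts. Whether the signal on these probes came from the genes they are named for was not tested.

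The sequence most widely shared by the selected probes was GTGTGTGTGTGT, which 80 of the 95 carried (84.2%), against 113 of all 55615 probes (0.203%) and 88 of the named probes (0.265%). The windows below are the 5 brightest selected probes, shown because they show the repeat in its plainest form. Each has 30 of the 60 bases, written 5′ to 3′ on the mRNA strand, with the longest uninterrupted GT run in capitals and its neighbouring bases in lower case.
Sp110: GTGTGTGTGTGTGTGTGTGTctgaactttg
Dennd4a: GTGTGTGTGTGTGTGTGTGTctgtgcacac
Luc7l2: GTGTGTGTGTGTGTGTGTGTagagtttaaa
Spag7: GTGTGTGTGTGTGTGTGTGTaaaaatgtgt
Creb5: GTGTGTGTGTGTGTGTGTGTttatgaacag

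The bases beyond the run differed from probe to probe, and the run itself was longer than the part shown, to 37 bases in Sp110 and Dennd4a, 32 in Luc7l2, 30 in Spag7 and 26 in Creb5. Across the 95 probes the longest GT run had a median of 20 bases and ranged from 2 to 41. In 91 of them it was at least 9 bases long, a length found in 254 of all probes (0.457%). Among those 91 the run started anywhere from base 1 to base 43 of the probe, with a median of 25. It reached the 5′ end in 15, the 3′ end in 23 and neither end in 53. The share of G and C had a median of 43.3% (35 to 55) against 41.7% (15 to 86.7) among named probes.

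The next shared sequence was an interrupted form of the same repeat, GTGTGTATGTGT, held by 12 of the 95 probes and by 22 of all probes (0.0396%). Either of these sequences was present in 85 of the 95, and 5 more shared some other 12-base run with at least 5 selected probes, for 90 in all. The following windows are shown because they hold a short pure run that is then interrupted by an A. The window of Slc1a4 holds the interrupted form named above, and that of Lsm14a does not.
Slc1a4: atgtatcaaGTGTGTGTGTGTatgtgtgtg
Lsm14a: gttttgtgcGTGTGTGTGTGTatgtatgtg

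Slc1a4 encodes a neutral amino acid transporter and Lsm14a a protein of mRNA processing bodies. Their pure runs were 12 bases each and ended at an A, after which the repeat went on.

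The 5 selected probes that shared no 12-base run with at least 5 others were those for Gm5215, Th1l, Prr3, Shank2 and Magef1. Their windows are shown because they are the exceptions, with the longest run of 1 alternating pair in capitals, which is GT for Th1l and Magef1 and AG for the others.
Th1l: TGTGTGTGTGggagtgtgcgtgtgttgtgt
Magef1: GTGTGTGTGTaagcttatttgatgccgagc
Gm5215: gcaggaagaAGAGAGAGAGAGgagagttaa
Prr3: gcacacaagagGAGAGAGAGctgttggaga
Shank2: ttatttagaagGAGAGAGAGgaagagggag

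Th1l, named Nelfcd in RefSeq and a subunit of the negative elongation factor of RNA polymerase II, and Magef1, of the MAGE family, each had a GT run of 10 bases. Gm5215, Prr3 and Shank2, the last a scaffold protein of the postsynaptic density, had GT runs of only 2, 5 and 3 bases. These 3 instead held AG runs of 12, 9 and 9 bases. No selected probe held ACACACACACAC, the opposite strand of the main run, which stood in 55 of all probes (0.0989%). The strand of probe and gene was known for 71 of the 95, and the probe was on the gene's own strand in all 71, as in 24192 of 24394 named probes (99.2%).

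Before the values, the 4 arrays compared as follows. The 75th percentile of the signal lay between 418.1 and 443.1, saturation touched 0 spots, and 68.4% to 74.1% of the 59305 non-control spots were well above background. All 27 marker genes of neurons, glia, choroid plexus, blood and endothelium that were looked at were well above background on all arrays. Both ratio thresholds were passed by 0 of them, against 554 of all 55615 probes, so nothing is read from that 0. Ttr, the transthyretin gene that marks choroid plexus, separated the 2 experiments rather than the antibodies, at 6966 and 11608 with CPEB2 IgG and control IgG in replicate 1 and at 291 and 289 in replicate 2. Cpeb2 itself was at 2410 and 1877 with CPEB2 IgG and at 299 and 297 with control IgG, ratios of 3.10 and 2.68. The part of a difference in tissue between the lysates in what follows was not tested.

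Among the 5665 named probes over the signal floor, 1.68% met both ratio thresholds, which is the selected set itself. In processed signal, the unit that the scanner software gives after background subtraction, the 95 probes had medians of 11487 (1134 to 80178) and 17160 (1365 to 113610) on the CPEB2 IgG arrays of replicates 1 and 2. On the control IgG arrays the medians were 36185 (3032 to 196418) and 7617 (889 to 53741). All 95 were well above background on all 4 arrays. After each array was scaled to its 75th percentile, the log2 ratio had a median of -1.50 (-2.05 to -0.88) in replicate 1 and of 1.15 (0.64 to 1.74) in replicate 2, where all probes had medians of 0.01 and -0.25. The mean of both replicates had a median of -0.16, between -0.69 and 0.36, so the opposite ratios nearly cancelled.

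The order of the arrays was the same in almost the whole set. The scaled signal was highest on the control IgG array of replicate 1 in 95 of 95 probes and lowest on the control IgG array of replicate 2 in 93. Both held in 93, against 2.48% of all named probes. Because the rule fixed the direction in each replicate, nothing is read from that count. The control IgG arrays differed from each other by a median of 2.13 on the log2 scale, replicate 1 minus replicate 2, where the median of named probes was -0.05. The CPEB2 IgG arrays differed by less and the other way, with a median of -0.52, and replicate 2 was the higher one in 92 of 95.

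The brightest probe was that of Sp110, a nuclear body protein induced by interferon, at chr1:87473677-87473736 on the minus strand (mm9, the build of the array files). Its signal was 76646 and 107915 with CPEB2 IgG in replicates 1 and 2, and 196418 and 51919 with control IgG. The ratios were -1.27 and 1.08, with both CPEB2 IgG arrays lying between the control IgG arrays.
Luc7l2, which encodes a splicing factor of the U1 particle, showed the same order at chr6:38559052-38559111, with 73463 and 110724 against 180926 and 49337, and ratios of -1.22 and 1.19. Creb5, a transcription factor of the CREB family, stood at 60559 and 93910 against 168688 and 40048 at chr6:53645678-53645737. Ubtf, the upstream binding factor of ribosomal RNA genes, was measured at chr11:102166995-102167054 with 61821 and 98133 against 155554 and 41287. The rule fixed that the antibodies overlap in each of these probes.

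The other 6 of the 10 brightest were Dennd4a, Spag7, LOC100048345, Ms4a4c, Cyp2u1 and Fam160b2. Their ratios lay between -1.69 and -1.18 in replicate 1 and between 1.02 and 1.25 in replicate 2. Fam160b2 differed in sequence, since its 21-base GT run ran directly into an AG run of 11 bases, and its ratio of -1.69 in replicate 1 was the lowest of the 10. Cyp2u1 encodes a cytochrome P450 of fatty acid metabolism and Ms4a4c a membrane protein of the MS4A family.

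Ion channels and a synaptic scaffold protein were among the genes named by the set. The probe for Scn8a, a voltage-gated sodium channel, gave 5314 and 9394 with CPEB2 IgG against 17363 and 3814 with control IgG, and held a 16-base GT run. Kcna4, a voltage-gated potassium channel, gave 4010 and 5745 against 11481 and 3057 with a run of 13 bases. Shank2 gave 2405 and 1365 against 10347 and 889. For Shank2 the scaled CPEB2 IgG signal was higher in replicate 1 than in replicate 2. This held for 3 of the 95 probes, Gm5215, Prr3 and Shank2, whose AG runs came with GT runs under 9 bases. Fam160b2, with an AG run of 11 bases beside its GT run, had the other order, at 42590 and 47879 with CPEB2 IgG. Gm5215 gave 34233 and 26404 against 104231 and 9895, and Prr3 gave 3174 and 1954 against 13959 and 1210. Scn8a and Kcna4 were chosen for naming after their values were seen.

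The widest gaps between the ratios of replicates 2 and 1 belonged to probes with short runs, shown here for comparison with the long runs of the brightest probes.
Dcaf12l2: GTGTGTGTGTGagtgatttattttcaaagt
Golt1a: taagGTGTGTGTGTGTatatgatctatgta
Vax2: GTGTGTGTGTctgagtatgtatgtgtcact

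For Dcaf12l2, at chrX:41719612-41719671, the signal was 3025 and 5997 with CPEB2 IgG against 11846 and 2065 with control IgG, a gap of 3.45 on the log2 scale. Golt1a, a Golgi transport protein, had a gap of 3.29, from 1479 and 3571 against 5271 and 1249. Vax2, a homeobox factor of the ventral eye, had a gap of 3.28, from 1321 and 3383 against 5359 and 1355. In each of them control IgG replicate 1 was the highest of the 4 arrays, as in the rest of the set.

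At the edges of the rule, Atp8a1, a phospholipid flippase, was just inside the first threshold at -0.88 and Gas5, a non-coding host gene of small nucleolar RNAs, just outside at -0.73. Shank2 was just inside the second threshold at 0.64 and Rheb, an activator of mTORC1, just outside at 0.59. Golga7b was just inside the signal floor at 3032 and Igfbp4, an IGF-binding protein, just outside at 2824. The GT runs of the 3 probes inside were 12 bases in Atp8a1, 3 in Shank2 and 14 in Golga7b, and those of the 3 outside were 5 in Gas5, 5 in Rheb and 3 in Igfbp4.

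The pattern could be followed by the length of the GT run over all probes, whether selected or not. In the 55361 probes with a run of 8 bases or fewer, the median ratios were 0.01 in replicate 1 and -0.25 in replicate 2. They were -0.43 and 0.36 in the 112 probes with 9 or 10 bases, and -1.01 and 1.24 in the 36 with 11 or 12. From 13 bases on, the medians stayed between -1.55 and -1.43 in replicate 1 and between 1.08 and 1.20 in replicate 2. All 67 probes with 17 bases or more were below 0 in replicate 1 and above 0 in replicate 2, of which 56 were selected. Signals over 3000 were found for 24 of the 112 probes with 9 or 10 bases, for 19 of 36 with 11 or 12, for 32 of 39 with 13 to 16 and for 66 of those 67. These medians include the selected probes, whose ratios the rule set.

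Within the set, where the rule limits the ratios, the values by run length were as follows. The 17 probes with 31 bases or more had ratios between -1.60 and -1.18 in replicate 1 and between 1.01 and 1.21 in replicate 2. The 15 probes with 9 to 12 bases spread more widely, from -1.94 to -0.88 and from 0.76 to 1.70. The 4 probes with 8 bases or fewer had the lowest median in replicate 1, at -1.89, and the lowest in replicate 2, at 0.97.

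The rule left out probes without a gene name, so those gave the same measure in probes that it could not choose. Of the 113 probes with the 12-base GT run, 25 had no gene name. Their median ratios were -1.58 and 1.22, and 23 of the 25 were below 0 and then above 0, which 9.06% of all probes were. Their control IgG arrays differed by a median of 2.13, replicate 1 minus replicate 2, with 25 of 25 above 0. Those 25 came from the same 4 samples and share the repeat, so they are no replicates of the selected probes. In the other direction, 19 probes without a gene name met the rule's ratios and signal, and 18 of them held the 12-base GT run.

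A further 8 named probes carried the run and were not selected. Of these, Fdxacb1, Zfp133-ps and Gm10914 met both ratio thresholds and fell short on signal. Gm6994 had the opposite ratios at -0.42 and 1.53, and Fnbp1, a membrane-curving protein of endocytosis, and Elp5, an Elongator subunit, had -1.48 and 0.30, and -0.57 and 0.30. Hpca and Zfp707 were below 0 in both replicates. For Hpca, the calcium sensor hippocalcin of hippocampal neurons, the signal was 7661 and 10690 with CPEB2 IgG against 20975 and 19959 with control IgG, so that the antibodies did not overlap, at ratios of -1.37 and -0.88 and with a GT run of 14 bases. Of the 33 carriers outside the selected set, named or not, 29 were below 0 and then above 0. Over all 113 carriers it was 109, but the rule fixed that order in the 80 selected ones.

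Probes with the opposite strand of the repeat showed the opposite order. The mirrored rule, over 0.6 in replicate 1 and under -0.8 in replicate 2 with the same floor, picked 10 named probes, and each of them held an AC run, of 12 to 27 bases. The windows of 4 of them are shown, with the AC run in capitals, to set beside the GT runs above.
Oprm1: tagatgctaaACACACACACACACACACAC
Slc17a5: ACACACACACACACACACACtgataaactt
Snap23: tttaaaagatACACACACACACACACACAC
Krt222: taaaggttgtACACACACACACACACACAC

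For Snap23, a SNARE protein of membrane fusion, the signal was 5406 and 4718 with CPEB2 IgG against 2228 and 9309 with control IgG, so here control IgG replicate 1 was lowest and replicate 2 highest. Slc17a5, the sialic acid transporter of lysosomes, followed with 7640 and 6356 against 3137 and 13306. Over all 55 probes with the 12-base AC run, the median ratios were 1.26 and -0.73, and 46 were above 0 and then below 0, which 20.6% of all probes were. None of the 55 was below 0 and then above 0. Their control IgG arrays differed by a median of -1.87, replicate 1 minus replicate 2, and their CPEB2 IgG arrays by 0.08.

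The other probes of the genes named by the selected probes had the pattern about as often as all probes, but most of them were dim. Other probes existed for 56 of the 95 genes, 83 in all, and none of these had the 12-base GT run. Their median ratios were 0.04 and -0.08, with 7 of 83 (8.43%) below 0 and then above 0, near the 9.06% of all probes. Past both ratio thresholds were 0 of 83, against 554 of all 55615 probes. A bright probe past both would itself have been selected, so nothing is read from that 0. The remaining 39 genes had no other probe on the array.

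For 9 genes another probe was over the signal floor, so bright probes named for the same gene could be compared. Whether the signal on these other probes came from those genes was not tested either. Epha5, an ephrin receptor of axon guidance, gave 10792 and 14559 with CPEB2 IgG against 33310 and 6657 with control IgG on its selected probe, which had a 20-base GT run. A probe at chr5:84483837-84483896, without the run, gave 20962 and 20462 against 1640 and 1230, ratios of 3.76 and 4.08. A further Epha5 probe gave ratios of 1.32 and 1.35, so both probes without the run had CPEB2 IgG above control IgG in both replicates while the selected probe did not.

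Mef2a, a transcription factor of activity-dependent gene expression in neurons, also differed between its probes. Its selected probe, with a GT run of 10 bases, gave 3064 and 5450 against 9111 and 2123, ratios of -1.49 and 1.38, and its other probe gave 3205 and 4770 against 912 and 919, ratios of 1.90 and 2.40. Dnajc19, of mitochondrial protein import, had ratios of -1.45 and 0.98 on the selected probe and 1.21 and 1.39 on the other. In these 3 genes the probes without a run had ratios above 0 in both replicates.

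In 5 other genes the second probe lay lower with CPEB2 IgG in both replicates, and in Luc7l2 it did not. Golga7b had ratios of -0.90 and -0.45 on its second probe, Sept3, a septin of neurons named Septin3 in RefSeq, had -0.40 and -0.30, and Epb4.9, the actin-bundling protein dematin, had -0.49 and -1.06. The second probe of Bpifc had -0.13 and -0.12, and that of Luc7l2 was above 0 in both replicates, at 0.05 and 0.47. The second probe of Dcaf12l2 held a 24-base AG run and had ratios of -0.71 and -0.48. In all 10 of these second probes the scaled ratios of both replicates had the same sign. For Luc7l2 that rests on the scaling, since its unscaled signals in replicate 1 were 58762 with CPEB2 IgG and 60071 with control IgG. Among all probes, 9.06% were below 0 and then above 0, and 20.6% were above 0 and then below 0. A bright probe past both thresholds would itself have been selected, so nothing is read from the shared sign.

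Over all probes, limma with the replicates as pairs called 5229 of 41166 tested probes higher with CPEB2 IgG (12.7%) and 6101 lower (14.8%), at a Benjamini-Hochberg adjusted p under 0.05. Of these called probes 46.2% were higher, and 57.3% with the arrays centred on their medians instead. All of these calls rest on the filter for probes above background on at least 2 arrays, since without it limma called 0 of 55615, with 16093 at an unadjusted p under 0.05. Of the 95 selected probes, limma called 0 in either direction, the lowest adjusted p was 0.466, and 0 had an unadjusted p under 0.05. The rule chose probes whose replicates disagree, so nothing is read from that count.

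On the array surface the selected probes were spread widely, over rows 4 to 374 of the 384 that named probes occupied and over columns 1 to 162 of 164. Their median row was 173, against 190 for named probes, and their median column 92, against 82.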

How the data were processed

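RNA precipitated by CPEB2 IgG or control IgG (2 samples each) was measured on 1-colour Agilent SurePrint G3 Mouse arrays. The deposited intensity values are processed signals that the authors' scanner software, Agilent Feature Extraction 10.5.1.1, background-subtracted and detrended within each array, with no normalization between arrays. All 4 arrays shared 1 slide and 1 scan, and each sample had its own position on the slide. Positions are mm9, per the file headers, and exons or untranslated regions were not assigned. Of 55681 distinct non-control probes, 66 without an unflagged spot on some array were left out. Spots of 1 probe were averaged, log2 signals were scaled to each array's 75th percentile, and same-numbered arrays were subtracted, since the methods state that each lysate was divided (deviations from the group means of same-numbered arrays correlated at 0.206). The replicates are 2 independent experiments per the methods, and with 2 arrays per antibody their number limits the precision.

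A shared stretch was a 12-base run, as written in the probe sequence, present in at least 5 other selected probes. Probes well above background on at least 2 arrays were fitted with the replicate as a block (limma 3.58.1, R 4.3.3), and the fit was tested on simulated data. The rule of selection, the lists and the tests were chosen with earlier results of these data known. Named were the 10 brightest selected probes, the 3 with the widest gap between replicates, those sharing no stretch, the neighbours of each threshold, genes with another probe over the floor, and Cpeb2. The genes named beyond these rules, among carriers, mirrored probes and channels, were picked after their values were seen. Accessions of 80 of the 95 probes matched RefSeq (GRCm38.p6), 4 under another symbol. Scaling, thresholds, floor and run length were varied, and limma was also fitted with no replicate block. The ratios were always taken between same-numbered arrays. Python 3.11.15, numpy 2.4.6 and pandas 2.3.3 were used.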

Additional observations from a re-analysis of the deposited data

How the results depend on the processing

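Of the 95 selected probes, between 90 and 95 were also picked under median centring, quantile normalization, no scaling, normexp background correction, the 75th percentile taken over probes above background on all 4 arrays, or with outlier spots kept, where the rule picked 90 to 99 probes in all. Without the signal floor it picked 291, of which 103 had a GT run of at least 9 bases, and mirrored it picked 10. With 1 replicate left out, so that only the ratio of the other replicate counts, it picked 1777 to 2454, and 97 and 108 of these had such a run. A shared run of 20 bases in place of 12 was found in 51 of the 95 rather than 90. For the other probes of the same genes, the mean of the median ratios of both replicates was -0.02, which became 0.18 under median centring and 0.12 under quantile normalization, and -0.08 to 0.04 with 1 replicate left out.

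The limma fit called 11330 probes in all with the replicate block and 11356 with no replicate block, and 0 selected probes in either. Without the filter on dim probes it called 0 of 55615, with 16093 at an unadjusted p under 0.05. The median of the mean ratio over all probes was -0.15 and moved to 0.08 under median centring and to -0.01 under quantile normalization. With 1 replicate left out, limma had no residual degrees of freedom and was not run.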

Other observations

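Other alternating runs went with other patterns. The 29 probes with an AG run of 12 or more bases had median ratios of -1.67 in replicate 1 and -0.67 in replicate 2, and 28 of them had a signal over 3000. The order below 0 and then above 0 was found in 6 of the 29 (20.7%), against 9.06% of all probes, and Gm5215 was a selected probe among them. The 21 probes with a CT run of 12 or more bases had median ratios of 0.84 and 0.55, with 0 of them below 0 and then above 0. For the AG probes the median signals were 25229 (CPEB2 IgG) and 95855 (control IgG) in replicate 1 and 7073 and 9895 in replicate 2, so both antibodies gave the higher median in replicate 1.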
